A study of Homo sapiens with 6 samples.

Results

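The strongest distal regions of open chromatin in EndoC-βH3 cells were 2773 regions, 3.22% of the 86251 autosomal distal regions and 2.55% of the 108542 regions of the whole table. They were selected on their mean signal, the average of the normalised ATAC-seq read counts over all 6 libraries, which had to be 1000 or more. They also had to lie outside 2 kb on either side of every GENCODE 44 start site of a protein-coding transcript. A further 15 regions of such signal matched mitochondrial DNA and were set apart. The signal therefore describes the members and is not a finding about them, and no replicate test of it can be made, since each region has only the authors' mean.

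EndoC-βH3 is a human beta cell line from fetal pancreas, a single line immortalised with telomerase and SV40 large T, and it carries a tamoxifen-inducible Cre recombinase that can cut these transgenes out. The 3 senescent libraries came from cells treated for 3 weeks with 4-hydroxy-tamoxifen, and the 3 non-senescent libraries came from cells of the same line that kept their transgenes. Each library was made from 100000 cells of the genotype labelled WT. The mean pools both groups, so nothing below tells senescent from non-senescent cells, and the depth of each library is unknown from the table.

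ATAC-seq uses a transposase that cuts exposed DNA, so reads collect where nucleosomes give way to bound proteins. Away from the promoters of coding genes such sites are mostly enhancers, sites of the insulator protein CTCF and promoters of non-coding RNAs. In beta cells, enhancers bound by factors such as PDX1, NKX2-2, FOXA2, MAFA and NEUROD1 are known to hold up the genes of insulin making and release.

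Stretches of 300 bases from the middle of 6 members are shown as examples. They were chosen for a motif match or a start site, so they do not stand for the members as a whole. The first carries a CTCF match with no mismatch, which only 0.469% of members held, and capitals mark that match. In the 3 that follow, capitals mark matches to the motifs of beta cell and enhancer factors (RFX, MAF, HNF1, FOX, homeodomain, NEUROD and AP-1). In the start site of the pseudogene FAM86KP, capitals mark matches to motifs common in promoters (SP/KLF, ETS, NFY, CRE, NRF1 and YY1). A start site of higher signal, at LINC01353 with 5047, held 0 matches of this set and is not shown. The last stretch shown lies in an intron of ABCC8, the sulfonylurea receptor subunit of the beta cell potassium channel. It is marked like the enhancer group and was chosen after its values were seen.
Intergenic region by ANKRD9 with CTCF, chr14:102524512-102524811, hg38, + strand: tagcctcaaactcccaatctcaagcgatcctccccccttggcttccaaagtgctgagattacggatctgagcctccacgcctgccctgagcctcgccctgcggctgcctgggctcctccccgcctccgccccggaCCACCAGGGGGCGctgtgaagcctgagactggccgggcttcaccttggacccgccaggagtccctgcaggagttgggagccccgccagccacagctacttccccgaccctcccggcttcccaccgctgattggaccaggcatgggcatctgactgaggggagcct
Region by BTG2 with NEUROD, chr1:203290816-203291115, hg38, + strand: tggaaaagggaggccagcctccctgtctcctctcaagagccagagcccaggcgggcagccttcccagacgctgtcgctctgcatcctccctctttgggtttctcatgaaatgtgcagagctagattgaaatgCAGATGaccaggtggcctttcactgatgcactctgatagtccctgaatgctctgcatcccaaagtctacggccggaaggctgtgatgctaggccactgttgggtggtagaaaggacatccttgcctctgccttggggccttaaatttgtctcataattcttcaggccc
Region by WASF2 with RFX, chr1:27528108-27528407, hg38, + strand: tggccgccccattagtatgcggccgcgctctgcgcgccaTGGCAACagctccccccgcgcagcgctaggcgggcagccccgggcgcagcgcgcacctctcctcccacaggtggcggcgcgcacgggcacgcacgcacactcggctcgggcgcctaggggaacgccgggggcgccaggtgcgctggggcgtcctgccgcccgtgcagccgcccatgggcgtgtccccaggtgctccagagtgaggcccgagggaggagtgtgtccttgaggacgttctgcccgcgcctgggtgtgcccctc
HDAC4 intron with HNF1, chr2:239246803-239247102, hg38, + strand: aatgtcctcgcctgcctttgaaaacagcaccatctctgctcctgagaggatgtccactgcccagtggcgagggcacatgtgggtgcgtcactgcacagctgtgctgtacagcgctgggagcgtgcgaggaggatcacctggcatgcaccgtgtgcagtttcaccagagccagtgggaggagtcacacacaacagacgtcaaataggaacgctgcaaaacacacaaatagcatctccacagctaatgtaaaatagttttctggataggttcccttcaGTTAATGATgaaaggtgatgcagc
Start site of FAM86KP with SP/KLF, chr4:9152922-9153221, hg38, + strand: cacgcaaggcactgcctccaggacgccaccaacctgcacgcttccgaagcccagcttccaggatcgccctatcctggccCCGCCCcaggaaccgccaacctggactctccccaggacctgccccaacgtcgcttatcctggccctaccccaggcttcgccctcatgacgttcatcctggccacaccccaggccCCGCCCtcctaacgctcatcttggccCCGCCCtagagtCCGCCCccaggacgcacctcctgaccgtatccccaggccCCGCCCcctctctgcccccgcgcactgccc
ABCC8 intron with NEUROD, chr11:17413795-17414094, hg38, + strand: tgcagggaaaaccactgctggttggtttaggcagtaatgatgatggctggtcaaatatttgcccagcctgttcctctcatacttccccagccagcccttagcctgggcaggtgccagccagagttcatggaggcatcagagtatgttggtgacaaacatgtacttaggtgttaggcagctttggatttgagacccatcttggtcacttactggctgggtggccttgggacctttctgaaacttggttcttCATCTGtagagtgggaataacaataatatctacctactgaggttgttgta
The mean signals of these 6 regions were 2589 by ANKRD9, 5349 by BTG2, 5118 by WASF2, 4585 in HDAC4, 4914 at FAM86KP and 4090 in ABCC8. The stretch at FAM86KP held 5 SP/KLF matches, and each of the other 5 stretches held 1 match of its set.

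The members had a median signal of 1404, with quartiles of 1171 and 1880. They took in 28.5% of all signal in autosomal distal regions and 15.4% of that in all autosomal regions. The 3 members just above the limit had signals of 1000, 1000.94 and 1001.04, at chr1:147084298-147085401, chr19:9849863-9850757 and chr10:133329827-133331286. The 3 distal regions just below had signals of 999.4, 999.7 and 999.7, so the limit separates regions of almost equal signal. Another 5059 distal regions lay between 500 and 1000.

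The label of strongest distal regions held for the sum of reads in a region, which grows with its width. The median width was 1043 bp in the members and 478 bp in the 83442 other distal regions. Divided by width, the median signal was 1413 per kb in the members and 162.8 per kb in the other distal regions. Had as many distal regions been taken by signal per kb, 2003 of them (72.2%) would have been members. The member with the highest signal per kb was only 424 bp wide.

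The very top of the list was repeated DNA. Sequence was read as repeated when its middle 300 bases lay at more than 1 place in the genome, at 95% identity over 90% of their length, or when it looked like satellite DNA, the tandem repeats around centromeres. This held for 349 members (12.6%, 95% Wilson interval 11.4 to 13.9), and 44 of them were satellite-like. The other 2424 members are named single-copy here. Of distal regions under 500, every 10th was searched, and 13.2% of these were repeated. The difference of the members from them was -0.643 percentage points (95% Newcombe interval -2.05 to 0.837), so neither direction was resolved. At signals of 500 to 1000 the share was lower, 5.42%. Satellite-like sequence was rarer in the members, 1.59% against 7.497% of other distal regions. Within the members, repeats rose with the signal. The share of repeated members was 9.38% between signals of 1000 and 2000, 17.9% between 2000 and 4000 and 41.5% between 4000 and 8000, and all 30 members over 8000 were repeated. No mapping quality limit is stated for the reads, and the part of reads with several places in the signal was not tested. Intervals of shares cover counting error only, and regions are not replicates.

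**Figure D1:**
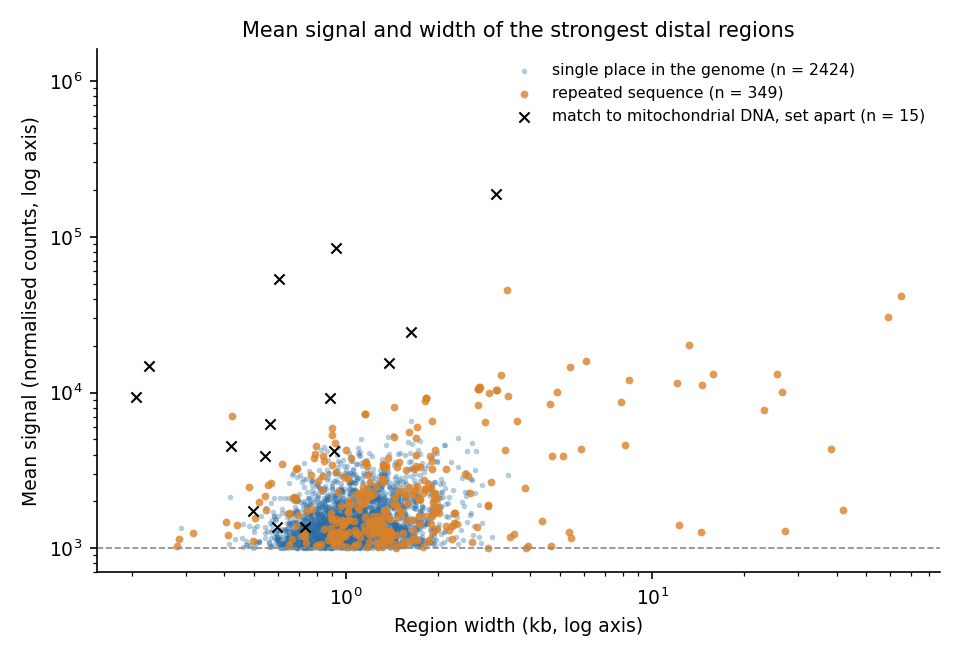
Mean signal of each member (normalised counts, vertical log axis) against region width (kb, horizontal log axis), with single-copy members in blue, repeated members in orange and the 15 regions matching mitochondrial DNA as crosses. The dashed line marks the limit of 1000, and every point above 8000 is a repeated member or a mitochondrial match.

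The highest signal among the members was 45291, at chr21:6368990-6372340 on the short arm of chromosome 21, and the next were 41454 at chr4:49091330-49156511 and 30340 at chr10:41857374-41916252. The latter pair were 65.2 and 58.9 kb wide, satellite-like and close to centromeres, so per kb they had only 636 and 515.3. The other 7 of the top 10 lay at chr1:143211793-143224964, chr16:46385295-46391369, chr5:49656434-49661812, chr1:143226249-143241988, chr20:31051543-31077101, chr21:8432237-8435430 and chr1:125176082-125184477, with signals from 12122 to 20075. Except for both regions of chromosome 21, the top 10 were satellite-like and lay outside genes. The 3 widest members were those of chromosomes 4 and 10 and chr1:2657372-2699400 in TTC34, of 42.0 kb, which had a signal of 1751 and the lowest signal per kb of all members, 41.7.

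Chromosome 21 held the ribosomal RNA genes among its members. These genes lie in tandem copies on the short arms of several chromosomes, and the build shows only part of them. The first 12 Mb of chromosome 21 had 65 members, and all 65 were repeated. Of these, 33 lay between positions 8204995 and 8457584, around the genes RNA5-8SN2, RNA5-8SN3 and RNA5-8SN1 for the 5.8S ribosomal RNA, with a median signal of 2608, a highest signal of 12924 and a median GC content of 62.7%. A pair of these members, in different copies of the genes, had nearly the same signal, as chr21:8217485-8218635 had 7329 and chr21:8444751-8445904 had 7326. Their middle windows were each found at 7 places. The stretch of 33 members was cut at a set position, and the locus of members at RNA5-8SN1 ran on to position 8461414. The 36 members on the rest of the chromosome included 1 repeated region and had a median of 1518.

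Repeated members also sat in gene clusters. The U2 small nuclear RNA genes, whose product takes part in splicing, lie in tandem by CCDC200 on chromosome 17. They held a locus of 6 members from 1020 to 2683 at chr17:43266344-43301055 and another of 4 from 1183 to 2907 at chr17:43233503-43252344, and all 10 were repeated and CpG-rich. Among the 5 members with the highest signal per kb, chr7:102688187-102689088 in the pseudogene RASA4DP had a signal of 5950 and 4 places in the genome. The others of these 5 were chr3:93470362-93470785, the 424 bp region named above, with a satellite-like sequence and a signal of 7064, the top member of chromosome 21 and the pair of ribosomal regions just named.

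The 15 regions set apart had signals from 1370 to 187656, and each matched mitochondrial DNA along its whole length at 86.6 to 100% identity. They lay on 7 chromosomes, and 4 of them lay at the start of chromosome 1, from chr1:629134-630060 to chr1:631770-634857, with signals of 14908, 53834, 84141 and 187656 and identities from 98.5 to 99.6%. The authors had removed reads aligned to mitochondrial DNA, and 3 of these regions had a higher signal than any member. Over all autosomal regions 37 matched mitochondrial DNA over at least 100 bases, with a median signal of 559.1. The 15 regions made up 2.43% of the distal signal.

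Outside repeats the signal had a much lower ceiling. The highest single-copy member was chr2:231604124-231605749, with a signal of 6612, 11.3 kb from the start site of TEX44 and outside genes. Next came chr1:203290254-203291678 with 5349, 13.8 kb from BTG2, an antiproliferative gene known as a target of p53. A neighbour 22.2 kb from BTG2 at chr1:203282235-203283349 had 5047, and each of these 2 regions held a start site of a long non-coding RNA. The third in order was chr2:16093850-16095222, with 5154, in a non-coding gene 153.3 kb from MYCN, and WASF2 was nearest to chr1:27527095-27529421, with 5118. The top 10 single-copy members ended at 4619. They included chr4:9152200-9153944 at FAM86KP, with 4914. FAM86EP and FAM86B3P, pseudogenes of the same family, held members of 3971 and 3206. The window at FAM86KP was found at 1 place at 95% identity, and a sharing of reads within this family was not tested.

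By signal per kb the single-copy members led with chr20:40144437-40145283, of 847 bp, a signal of 4480 and 5289 per kb. It lay outside genes. It was followed by chr1:154418120-154418948 in an intron of IL6R, a receptor of interleukin 6, with 4277 and 5159 per kb, and by chr20:7714609-7715025, 225.4 kb from HAO1, with 2123 and 5091 per kb. The widest single-copy member spanned 3377 bp at chr7:157016171-157019547, 5.51 kb from MNX1, a homeobox factor of beta cells, and had a signal of 2940.

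By position the single-copy members fell into 938 in introns of coding genes, 645 outside genes, 503 within 2 kb of a non-coding start site, 229 in the body of a non-coding gene and 109 in exons of coding genes. In this order each was counted by its start site first. Median signals ranged only from 1296 in exons to 1436 at non-coding start sites, with 1339 in introns and 1399 outside genes. The highest signal of each kind was 4585 in introns, 6612 outside genes, 5349 at non-coding start sites, 5154 in non-coding gene bodies and 4619 in exons. Counted without the start sites, 42.9% of single-copy members lay in introns of coding genes against 42.0% of other distal regions, and the interval of the difference, -1.01 to 2.99 percentage points, includes 0. Fewer lay outside genes, 32.1% against 38.4%, a difference of -6.24 points (-8.10 to -4.32). The 2 sides were not filtered alike, since repeats and satellites were left out of the single-copy members only. Over all members 39.1% lay in introns, a difference of -2.84 points (-4.67 to -0.977). Outside genes lay 32.8% of all members, a difference of -5.56 points (-7.31 to -3.76). The part of the unequal filter in these differences was not tested.

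The single-copy members lay nearer to coding genes than other distal regions did. The median distance to the nearest coding start site was 30730 bp against 56188 bp. A distance over 100 kb was found for 22.6% of single-copy members and 37.9% of other distal regions, a difference of -15.3 points (95% Newcombe interval -17.0 to -13.6). Repeats had been left out of the single-copy members only. Over all members the share was 25.7%, a difference of -12.2 points (-13.8 to -10.5). Distal regions of 500 to 1000 lay between, with 28.3%. Of the repeated members, 47.9% had no coding start site within 100 kb.

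Start sites of non-coding genes were more frequent in the members. A non-coding start site lay within 2 kb of 683 members (24.6%) and 8.62% of other distal regions, a difference of 16.0 points (14.4 to 17.7). In single-copy members the share was 20.8% and the difference 12.1 points (10.6 to 13.8). It was 16.1% in distal regions of 500 to 1000. A start site inside the region was found in 14.9% of single-copy members and 2.85% of other distal regions. The members were also wider than other distal regions, and the part of width in this difference was not tested.

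CpG-rich sequence rose with the signal in the same order. CpG-rich here means a GC content of at least 50% and an observed to expected CpG ratio of at least 0.6, as in most promoters of coding genes. This held for 15.6% of single-copy members, 10.9% of distal regions of 500 to 1000 and 4.18% of other distal regions, and the difference of single-copy members from the latter was 11.4 points (10.0 to 12.9). Promoter regions of 1000 or more were CpG-rich in 88.1%. Of the 503 single-copy members at non-coding start sites, 218 were CpG-rich (43.3%), against 4.58% of those in introns. The median GC content was 58.0% at non-coding start sites and 52.2% in introns.

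**Figure D2:**
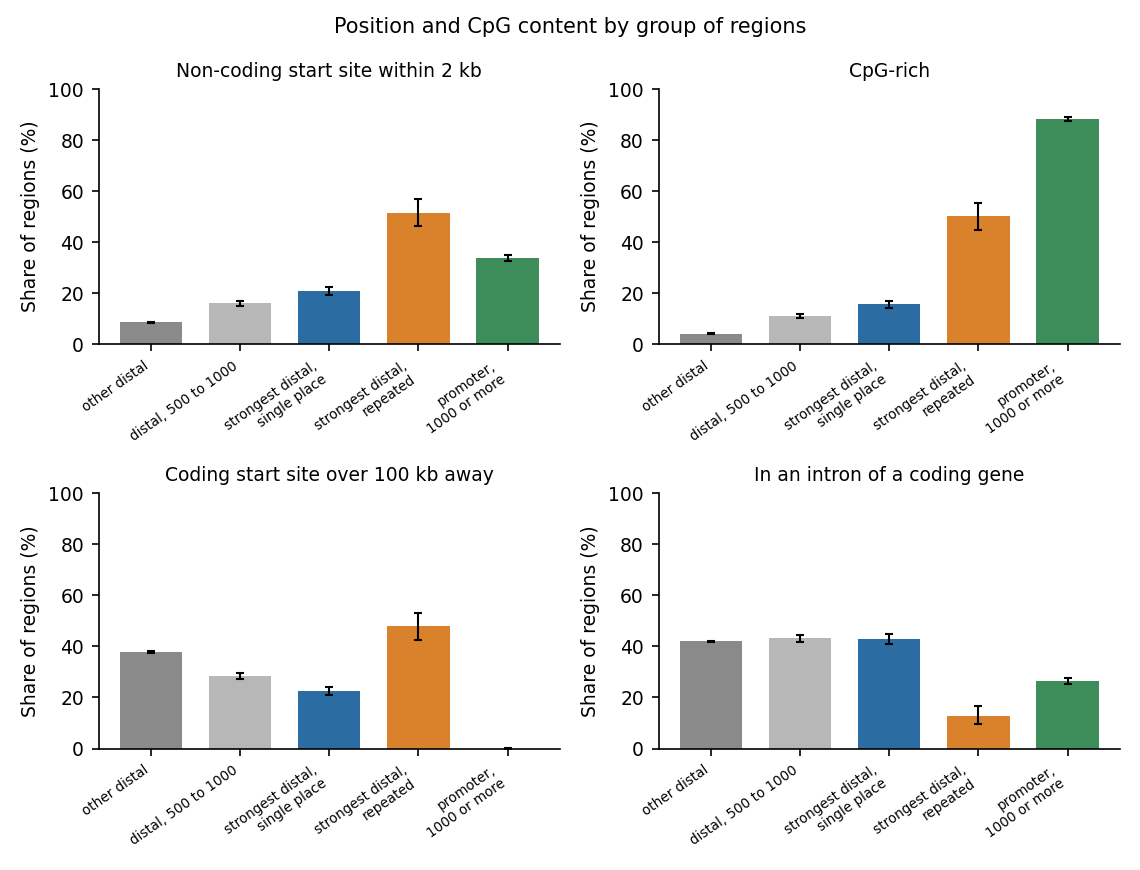
Share of regions (percent, bars from 0, error bars 95% Wilson intervals) with each of 4 features, in the 83442 other distal regions, their 5059 regions of 500 to 1000, the 2424 single-copy and 349 repeated members and the 5609 promoter regions of 1000 or more. Non-coding start sites and CpG-rich sequence are more frequent in single-copy members than in other distal regions, and the share in introns is close to equal.

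Among the 503 members at non-coding start sites, 406 were nearest to a long non-coding RNA, 17 to a microRNA and 16 to a small nuclear RNA gene. The strongest long non-coding RNA start sites after those near BTG2 and WASF2 were at LINC02018 with 4812, LINC01237 with 4691 and the unnamed gene ENSG00000224090 with 4254, all with the start site inside the region. MIR9-1HG, host of a microRNA of neurons, had 3436, and DLEU2 had 3090. The 17 microRNA members ranged from 1039 to 2380. Their start sites are those annotated for the microRNA entries, and transcription from them was not measured. The 17 included MIR375, the main microRNA of islets, whose annotated start lay 1179 bp from chr2:218999825-219000529 with 1202. MIR200C and MIR200A, microRNAs that uphold the epithelial state, had 1166 and 1039, both with the annotated start inside. These 3 microRNAs were chosen after their values were seen.

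Motifs were sought on both strands in the 300 bases at the middle of each region. A match describes letters and is not evidence of binding. The GC box GGGCGG of SP/KLF factors, common in CpG-rich promoters, was found in 23.1% of single-copy members, 8.07% of other distal regions and 70.5% of strong promoters. The ETS motif CCGGAAG was found in 4.08% against 1.35%, a difference of 2.73 points (2.01 to 3.60), and in 13.8% of strong promoters. CRE (TGACGTCA) and NRF1 (GCGCATGCG) were rarer, at 1.03% and 0.701% of single-copy members against 0.265% and 0.113%. At non-coding start sites 43.9% of members held SP/KLF, and 70.6% did where they were also CpG-rich, against 15.7% in introns.

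In this window of fixed length, 5 of the 7 motifs of beta cell and enhancer factors had a difference between single-copy members and other distal regions whose interval included 0. The RFX motif GTTGCCA was more frequent, found in 7.30% against 4.99%, a difference of 2.31 points (1.33 to 3.43), and it was in 6.58% of distal regions of 500 to 1000. RFX factors, among them RFX6, act in islet development. Shares of the NEUROD motif CAGATG were 30.2% against 31.2% (difference -2.84 to 0.864), of the MAF motif TGCTGAC 7.10% against 7.19% (-1.07 to 1.01), of the FOX motif TGTTTAC 8.66% against 9.46% (-1.87 to 0.407), of HNF1 (GTTAATNAT) 2.52% against 2.50% (-0.543 to 0.730) and of AP-1 (TGANTCA) 10.8% against 11.1% (-1.46 to 1.05). The homeodomain motif TAATTA was rarer, 8.25% against 10.2% (-2.95 to -0.720), as was the TEAD motif GGAATG, 12.2% against 14.99% (-4.05 to -1.39). The letters GGAAT also served to find satellites, which were left out of the single-copy members but not of the other distal regions. The TEAD difference is thus partly set by this choice.

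Over whole regions, which were wider in the members, each of these motifs was more frequent in single-copy members, and the directions for homeodomain and TEAD turned. NEUROD was then found in 66.8% against 43.2%, AP-1 in 30.8% against 17.6%, FOX in 20.6% against 13.98%, MAF in 20.3% against 10.9%, RFX in 18.6% against 7.66% and HNF1 in 6.19% against 3.70%. The homeodomain motif was in 21.7% against 15.6% (4.46 to 7.78) and TEAD in 40.8% against 25.2% (13.6 to 17.5). The part of width in these differences was not tested.

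The members were richer in GC, and some of these differences were not alike across ranges of GC content in the middle window. Within these ranges satellites were left out of the other distal regions. Among regions whose middle had 40 to 50% GC, the homeodomain motif was more frequent in single-copy members, 14.4% against 11.4% (difference 0.603 to 5.73 points), as was HNF1, 4.90% against 2.81% (0.742 to 3.91). At 50 to 60% GC the directions were the same, with homeodomain at 6.95% against 4.55% (0.801 to 4.38) and HNF1 at 2.23% against 0.999% (0.402 to 2.51). Below 40% and above 60% GC the intervals of both included 0. The difference for TAATTA was thus of opposite sign between 40 and 60% GC and over all regions, where the other distal regions kept their satellites. FOX was higher above 60% GC, 4.00% against 2.28% (0.464 to 3.43), and its intervals included 0 in the other ranges. RFX was higher in all 4 ranges of GC, with intervals above 0 at 50 to 60% and over 60% GC. Within 40 to 50% GC the NEUROD shares were 38.0% and 35.8%, with an interval of -1.32 to 5.75, and above 60% GC they were 19.0% and 23.5%, with an interval of -7.36 to -1.34. SP/KLF was higher above 60% GC, 56.3% against 44.6%. The TEAD share at 40 to 50% GC was 12.52% against 15.4% (-5.11 to -0.267). In the other ranges of GC its intervals included 0, with 10.2% against 10.3% above 60% GC (-2.18 to 2.45).

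Among the remaining motifs, NFY (CCAAT) was found in 28.3% of single-copy members against 30.1% (-3.57 to 0.0734). The order turned above 60% GC, with 25.9% against 14.2% (8.59 to 15.1), and over whole regions, with 67.9% against 44.8%. The B box of transfer RNA genes (GTTCGANNC) was in 1.07% against 0.439%. YY1 (AAGATGGCG) was found in 0.0825% against 0.0983%, while 3.46% of strong promoters held it. REST, sought as its pair of motif parts, was not found in the middle of any member, and a count of 0 of 2773 has an upper 95% Wilson limit of 0.138%. Other distal regions held it in only 8 of 83442, so a difference was not detectable. In repeated members SP/KLF was at 40.4%, ETS at 10.0% and NEUROD at 10.9%.

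**Figure D3:**
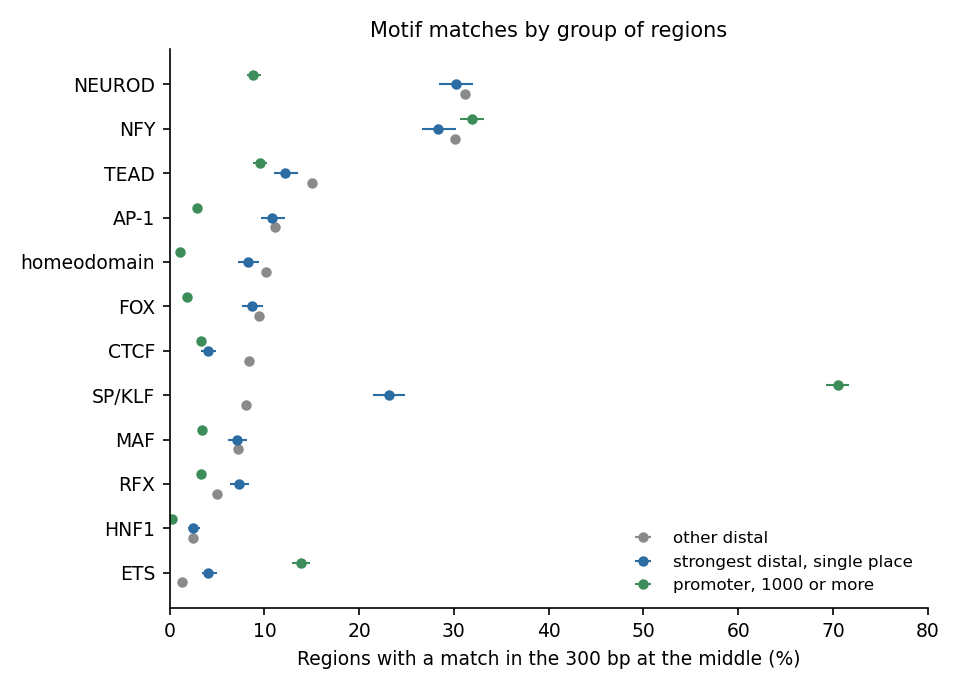
Share of regions with a motif match in the 300 bp at the middle (percent, horizontal axis, points with 95% Wilson intervals) for 12 motifs in other distal regions, single-copy members and promoter regions of 1000 or more. SP/KLF and ETS in the members lie between other distal regions and promoters, and NEUROD, MAF, HNF1 and AP-1 lie close to other distal regions.

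CTCF, the protein that binds insulators and anchors chromatin loops, was sought with its consensus of 13 letters and 1 mismatch. A match lay in the middle of 108 members (3.89%) and 8.37% of other distal regions, a difference of -4.48 points (-5.16 to -3.67). Distal regions of 500 to 1000 had a share of 4.01%, so the low share was not particular to the members. Outside satellites the share peaked at 11.1% in regions with signals of 50 to 100 and fell to 3.10% over 2000. With no mismatch it was 0.469% in members and 2.44% in other distal regions. With satellites left out of the other distal regions, the share was also lower in single-copy members within each of 4 ranges of GC content. The largest difference was at 50 to 60% GC, 2.85% against 13.7%, and the smallest below 40% GC, 0.633% against 3.79%.

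This difference was not seen when the whole region was searched or when regions of like width were compared. Over whole regions 12.2% of members and 11.2% of other distal regions held a CTCF match, and the interval of the difference, -0.180 to 2.29 points, includes 0. Per Mb of region, however, the members had 104.3 matches and the other distal regions 207.7. Among regions of 750 to 1000 bp, 3.74% of single-copy members and 4.36% of other distal regions had a match in the middle (difference -1.79 to 0.952 points). From 1000 to 1500 bp the shares were 2.85% and 3.14% (-1.33 to 1.06). From 1500 to 2500 bp the order turned, with 4.25% against 1.18% (0.929 to 6.02). The comparisons by width left satellites out of the other distal regions and were chosen after the data had been seen.

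**Figure D4:**
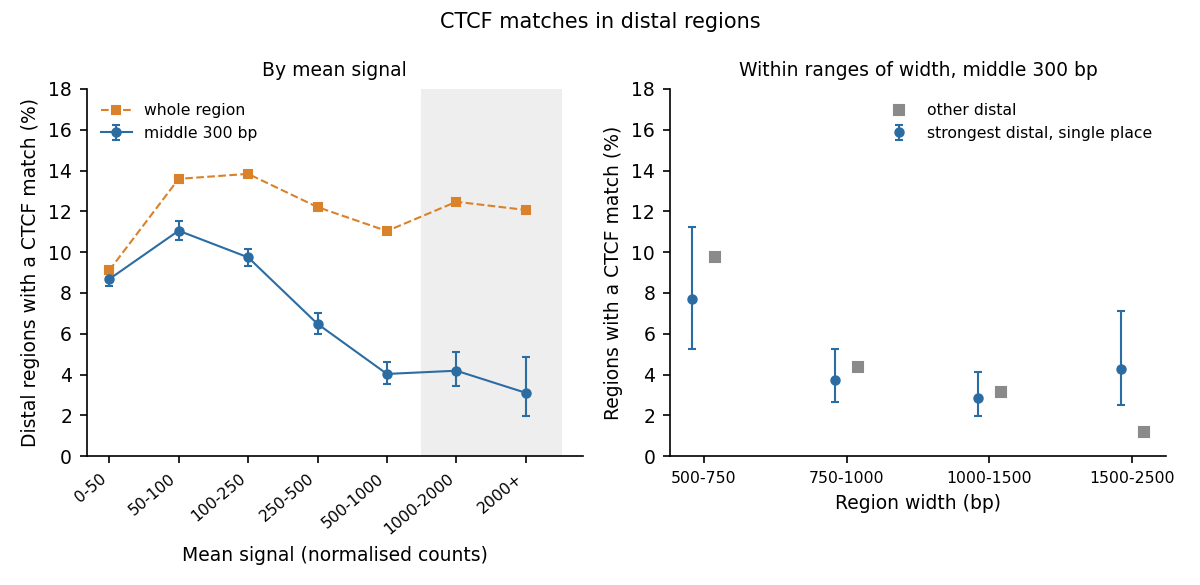
Share of distal regions with a CTCF match (percent) by range of mean signal on the left, in the middle 300 bp (circles, 95% Wilson intervals) and in the whole region (squares), satellites left out, with the ranges of the members shaded. On the right, also without satellites, shares in the middle 300 bp within ranges of width for single-copy members (circles, 95% Wilson intervals) and other distal regions (squares), which are close to each other from 500 to 1500 bp.

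Single-copy members were next assigned to a coding gene, the one whose start site was nearest, up to 100 kb away, which names a neighbour and not a target. They fell to 1494 genes, 7.82% of 19103 coding genes, and 1236 of these genes had 1 member. Of 29 beta cell factors 13 had a member (44.8%), as did 9 of 16 genes of the insulin granule and prohormone processing (56.2%) and 13 of 26 genes of glucose sensing, channels and exocytosis (50.0%). No member was nearest to any of 12 exocrine and duct genes or 17 genes of other lineages, and 1 of 8 genes of other islet cells had one, HHEX, a factor of delta cells, with 1571. Of 20 cell cycle genes 2 had a member, as did 2 of 15 genes of cell cycle arrest and p53.

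Genes of the beta cell lists also had more distal regions around them. The median was 10 regions per beta cell factor, 8.5 per granule gene and 6.5 per gene of glucose sensing, against 1 for all coding genes and for other lineages. As a share of those distal regions, single-copy members made up 26 of 312 (8.33%, 5.75 to 11.9) at beta cell factors, 19 of 152 (interval 8.15 to 18.7%) at granule genes and 22 of 230 (9.57%, 6.402 to 14.1) at glucose sensing genes, and 3.48% over all coding genes. The cell cycle arrest list had 6 of 47 (12.8%, 5.98 to 25.2), of which 5 were nearest to BTG2. The cell cycle list had 2 of 31 (6.45%, 1.79 to 20.7) and the list of other islet cells 1 of 37 (2.70%, 0.479 to 13.8). At exocrine and duct genes the count was 0 of 27 regions, with an upper 95% Wilson limit of 12.46%, and at genes of other lineages it was 0 of 39, with a limit of 8.97%. Both limits lie above the lower ends of the intervals of the beta cell lists, and the differences were not tested.

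Among beta cell factors FOXA2, a pioneer factor of endoderm, had the most members, 6. Their signals were 4024, 3500, 2070, 1684, 1480 and 1441, and 5 of them formed a locus 34.7 kb long at chr20:22489934-22524663. The highest lay 93.2 kb from the start site of FOXA2. NKX2-2, a repressor needed for beta cell identity, had members of 4195, 2610 and 1543, the highest at chr20:21520922-21523574, 6.86 kb away. The last of these lay in an exon of BETALINC1, a long non-coding RNA. INSM1, a zinc finger factor of endocrine cells, had 4 members from 1340 to 2036. ST18, a zinc finger factor expressed in endocrine cells, had 4242, 2370 and 1465, all in its introns.

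PDX1, the homeobox factor that drives insulin transcription, had a single member of 2098, 7.63 kb away at chr13:27911389-27912367 in the non-coding gene PLUT. MAFA, an activator of insulin transcription, had 2222. MNX1 had 2940 and 1202. Lower members were nearest to SIX2 with 1428, HNF4A with 1313, RFX6 with 1306 and NKX6-1 with 1192. PAX6 and ISL1, factors of all islet endocrine cells, had strongest distal regions of 627.4 and 768.2, below the limit. No distal region within 100 kb was assigned to NEUROD1.

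In the granule list CHGA, the matrix protein chromogranin A, had 7 members from 1214 to 3335. The highest was chr14:92935592-92937916, 12.4 kb from its start site, and 4 of the 7 formed a locus of 14.2 kb. SLC30A8, the zinc transporter of insulin granules, had 4 members of 2319, 1857, 1436 and 1426. The proinsulin convertases PCSK2 and PCSK1 had 2478 and 1418, and CPE, which trims the ends they leave, had 1158. PTPRN2, a membrane protein of dense granules, had 1728 and 1242, and SCGN, SCG3 and SCG5 had 1391, 1347 and 1052. INS, which encodes insulin, had no distal region assigned to it, but regions nearer to another coding start site were not counted for INS. The strongest distal region of IAPP, the co-secreted amylin, had only 66.3.

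Among genes of glucose sensing and release, ABCC8 had 3 intronic members of 4090, 3395 and 1463. Calcium channel genes were CACNA1C with 2636, 1088 and 1062, CACNA1A with 2286 and 1434 and CACNA1D with 1195. The exocytosis genes STX1A and SYT7 had members of 2671 and 2354. The glucose transporter genes SLC2A1 and SLC2A2 had 1473 and 1100. KCNJ11, the pore subunit that pairs with ABCC8, had a strongest distal region of 161.3. FFAR1, a fatty acid receptor, had a member of 2032, but its sequence was repeated.

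Set beside the strongest promoter region of the same gene, the strongest distal member was higher for 7 of 13 beta cell factors, 9 of 9 granule genes and 8 of 12 glucose sensing genes with both, and for 1008 of 1320 coding genes (76.4%). The members, but not the promoter regions, had been selected on their signal, so these counts are a description only. NKX2-2 had 405 at its strongest promoter region and ABCC8 had 509. At PDX1 the order was the reverse, with 2900 at the promoter region.

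**Figure D5:**
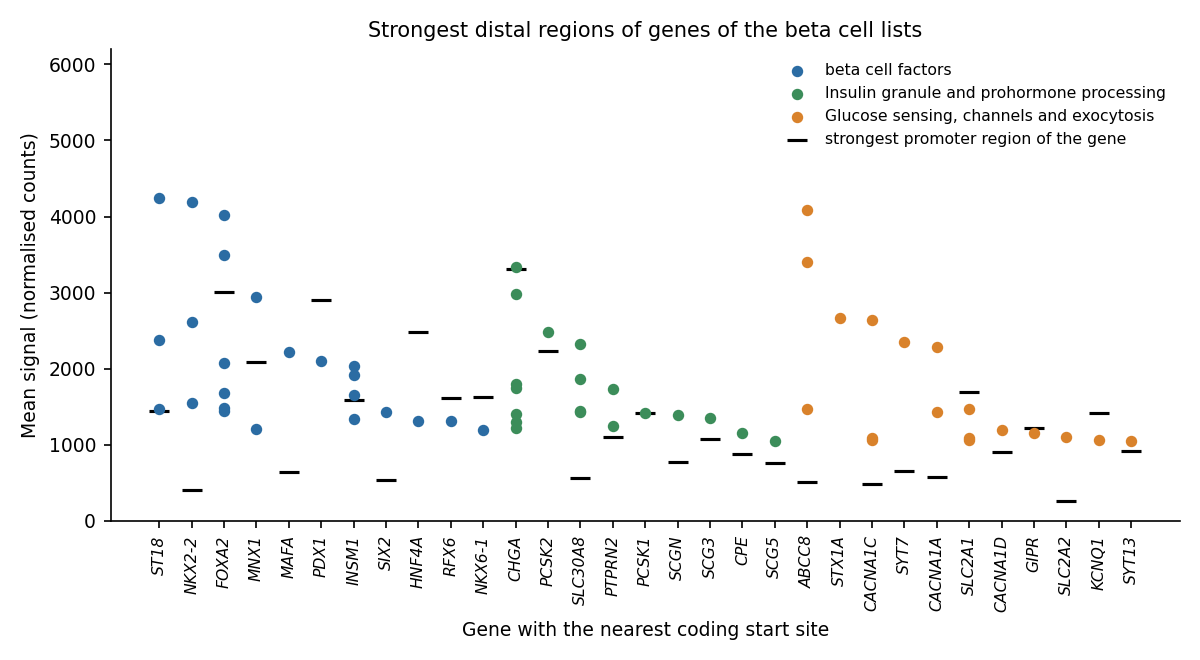
Mean signal (normalised counts, vertical axis) of the single-copy members within 100 kb of genes of the 3 beta cell lists, 1 point per member, for the genes reported here, with the gene of the nearest coding start site on the horizontal axis. Black bars mark the strongest promoter region of the gene (STX1A has none), above the member at PDX1 and below them at NKX2-2 and ABCC8.

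Most members stood alone. Joined across gaps no longer than those commonly bridged to stitch enhancers into super-enhancers, the 2773 members formed 2518 loci, of which 182 held at least 2 members. These loci held 437 members (15.8%), and 31 loci held at least 3. The largest, with 10 members each, were a pair of loci at ribosomal genes of chromosome 21. Loci of 7 members were another at these genes, chr1:143184646-143268743, whose members were all repeated, and a single-copy locus on chromosome 16. Of the single-copy members 337 (13.9%) lay in 152 loci.

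The single-copy locus of chromosome 16 spanned 40.3 kb at chr16:85422315-85462659 by GSE1, with 7 members from 1099 to 3051. The loci of FOXA2, with 5, and of BTG2, with 4 members from 1156 to 5349, came next. PTMA, which encodes prothymosin alpha, was nearest to 4 members from 1742 to 4087 at chr2:231662017-231681720. MALAT1, an abundant nuclear non-coding RNA, lay in a locus of 4 members from 1437 to 2010 at chr11:65476773-65508638. MIR375 belonged to a locus of 3 members with a highest signal of 4254 at chr2:218996032-219003341.

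By gene, HDAC4, a histone deacetylase, had the most single-copy members, 12, with signals from 1147 to 4585 and 10 of them in its introns. They were spread widely along and beside the gene. VEGFA, which encodes the growth factor of the islet vessels, had 5 members of 4029, 2769, 2584, 1433 and 1047. RALGAPA2, a neighbour of INSM1, had 5 from 1115 to 4147, and RAP1GAP2, a regulator of a small GTPase, had 5 from 1018 to 4081.

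Across chromosomes the share of distal regions that were members ranged from 18.7 per 1000 on chromosome 4 (15.1 to 23.2) to 86.2 per 1000 on chromosome 21 (71.4 to 103.6), against 32.2 over all autosomes. Without repeated members chromosome 21 fell to 29.9 per 1000 (21.6 to 41.2), close to the 28.1 of all autosomes. The highest single-copy shares were then 48.9 on chromosome 19 (40.4 to 59.1), 41.0 on chromosome 20 (34.2 to 49.0) and 39.9 on chromosome 17 (33.6 to 47.3), and the lowest were 16.6 on chromosome 4 and 17.7 on chromosome 18. The copy number of chromosomes in this line is not measured in these data, and its part in these shares was not tested.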

How the data were processed

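ATAC-seq libraries of 3 senescent and 3 non-senescent EndoC-βH3 samples were trimmed, aligned to hg38 with Bowtie2, freed of mitochondrial reads and duplicates and shifted for the transposase by the authors, who pooled MACS2 peaks into a union and counted reads per region. Versions and a mapping quality limit are not given in the sources used here. The signal deposited by the authors is the DESeq2 mean of normalised counts over all 6 libraries, not divided by width. Their columns of the senescent against non-senescent comparison (fold change, error, statistic and p-values) were not used, so the planned count tests could not be run, and no SD or n stands beside a signal.

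Regions on X and Y (2846) were left out. Positions are 1-based, in hg38. Gene parts and start sites came from GENCODE 44. Copies were sought with BLAST+ 2.17.0 in the primary assembly, satellites in windows of 3 kb by their period or a 5-letter repeat over 10% of the window. Motifs were sought with Python 3.11.15 and pysam 0.24.0, shares got 95% Wilson and differences 95% Newcombe intervals, and scripts were tested on simulated data. The members, lists and motifs were chosen with earlier results of these data known. Named regions were those highest in signal or signal per kb, the widest, those next to the limit, the listed genes and the genes and loci with the most members. Some genes of these lists are counted but not reported here by name.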

Additional observations from a re-analysis of the deposited data

How the results depend on the processing

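Of 76 values recomputed under an alternative, 53 were labelled the same and 23 moved further. A share labelled the same stayed within its interval, a count within 1.5 times and a median within the quartiles of the members. Quartiles are a wide margin for a median, such as 858 to 1332 bp for the width. The label thus says little about how stable the medians were. A limit of 500 gave 7832 members, of which 19.1% had a non-coding start site within 2 kb, 14.1% were CpG-rich and 41.8% lay in introns of coding genes. A limit of 2000 gave 609, with 29.9%, 27.1% and 31.2%, 36.5% outside genes and a CTCF match in 2.96%. Choice by signal per kb gave 18.1% with a non-coding start site, 13.2% CpG-rich and 43.5% in introns. Leaving out repeated members, chosen after the data had been seen, gave 20.8%, 15.6% and 42.9%. With start sites of all gene types taken out, 9.19% were CpG-rich, 43.7% lay in introns and 38.6% outside genes. The CTCF share was 0.469% with no mismatch and 12.2% over whole regions. Joining at 5 kb gave 107 loci of several members. The causes were not tested. No paired analysis was possible because each region has only 1 mean over the libraries, and count tests, other normalisations and leaving out replicates were not run for the same reason. The depth of single libraries is unknown.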

Other observations

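In windows of 5 Mb the most single-copy members lay at 235 to 240 Mb of chromosome 2, around HDAC4, with 26 of 274 distal regions. The next were 200 to 205 Mb of chromosome 1, around BTG2, with 24 of 294, and 20 to 25 Mb of chromosome 20, around NKX2-2 and FOXA2, and 25 to 30 Mb of chromosome 1, around WASF2, with 22 of 228 and 22 of 196. These windows were picked by their counts and are given as values only. A cell cycle gene, AURKB, was the nearest coding gene to a member of 2565 in LINC00324, and CCNE1, which drives entry into S phase, to 1 of 1220. SESN2, a stress gene known as a p53 target, was nearest to a member of 1137.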
